A study of Homo sapiens with 12 samples.

Results

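The genes described here are 32 genes of cholesterol and fatty acid synthesis, taken by symbol from a list and found as 32 of the 26210 genes in the deposited expression table. The list was made with earlier results of these data known, but its rule uses no measured value. The study sequenced total RNA, depleted of ribosomal RNA, from human lymphoma and leukaemia cell lines, with stranded libraries made in duplicate for each of 6 groups (12 libraries). The unit is FPKM, fragments scaled to transcript length and to library size, as computed by the authors.

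The groups were 3 untreated classical Hodgkin lymphoma (cHL) lines, KM-H2, L1236 and L428, the untreated Burkitt lymphoma line Namalwa, the untreated B-cell precursor leukaemia line Reh, and Reh treated with PMA (Reh+PMA). PMA is a phorbol ester that activates protein kinase C. It was given at 2 ng/ml, and the time of treatment behind the sequenced RNA is not given. Each group is 1 established cell line, so no group samples more than 1 patient's tumour. The cHL lines grew in IMDM and the other lines in RPMI, both with fetal calf serum, so medium and lymphoma type cannot be told apart. Duplicates of 1 line may be technical, so a p below measures only the spread between these libraries. The test of 3 cHL lines against 2 control lines is the exception. It uses line averages, so its p measures the spread between lines.

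Cholesterol is built from acetyl-CoA through mevalonate and squalene, and fatty acids are built from the same acetyl-CoA and then elongated and desaturated. Both routes are switched on by the SREBP transcription factors, coded by SREBF1 and SREBF2. When sterols are scarce, the carrier protein SCAP brings the SREBPs to the Golgi for cleavage, and when sterols are plentiful INSIG1 holds SCAP back in the endoplasmic reticulum. Dividing lymphoid cells make membrane from both products.

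The 12 libraries fell into 2 kinds, which were noticed after the values were seen. The deposited table numbers the duplicates of each group 0 and 1. The small nucleolar RNA gene SNORD95 was listed above 0 in KM-H2, L1236 and L428 library 1 and in both Reh+PMA libraries, at 16925 to 132676 FPKM, and at 0 in the other 7 libraries. All 253 SNORD rows together took 6.40 to 25.1% of the FPKM sum in those 5 libraries and 1.09 to 2.19% in the other 7. The ribosomal protein gene RPS27 was at 0.357 to 2.75 FPKM in 4 of the 5, all but KM-H2 library 1. It was at 3981 to 10813 FPKM in the other 8 libraries. KM-H2 library 1 was mixed, since it was also high in RPL41, EEF1A1 and RPLP0, at 9824, 7586 and 7381 FPKM. The other 4 of the 5 were at no more than 338, 1211 and 894. GAPDH, at 1853 to 6934 FPKM, and TBP, at 8.95 to 15.4 FPKM, did not separate the 2 kinds of library. PMA treatment therefore cannot be told apart from library kind in a direct comparison, since both Reh+PMA libraries are of the first kind and both Reh libraries of the second. By SNORD95, each cHL line has 1 library of each kind, which allowed a fit with a library class term for it. This term rests on the duplicates of the cHL lines alone and is carried over to Reh. It therefore does not separate PMA from library kind. That term, a block for the library number, and a fit without the cHL libraries numbered 1 were chosen after seeing the data.

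Depth differed between libraries. Read counts are not in the table, but at under 0.1 FPKM the ratios between libraries fell on steps of whole fragments, with 75.9 to 91.2% of such ratios within 0.025 (log2) of a ratio of whole numbers up to 6. From these steps, 1 FPKM stood for 0.386 times as many fragments in KM-H2 library 0 as in Reh library 0, and for 2.32 times as many in L1236 library 1, a 6.03-fold span.

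The 32 genes differed between some duplicates more than most genes did. In L428, library 1 was lower than library 0 in 29 of the 32 genes, with a median difference of -1.05 (log2 of FPKM + 1) against 0.02 over all 12929 genes tested. At least a 2-fold gap, in the same direction, was seen in 17 of the 32 genes (53.1%) and in 5.43% of all genes tested. In Reh+PMA, library 1 was lower in 25 of the 32, with a median of -0.32 against 0 over all genes, and a gap of at least 2-fold was seen in 4 (12.5%, all lower in library 1, against 1.37% of all genes in that direction): HMGCS1, SQLE, INSIG1 and STARD4. In Reh, library 1 was lower in 26 of the 32 (median -0.33 against 0), in KM-H2 library 1 was lower in 11, in L1236 in 20 and in Namalwa in 13. Library kind was not tested as the source of these gaps.

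**Figure D1:**
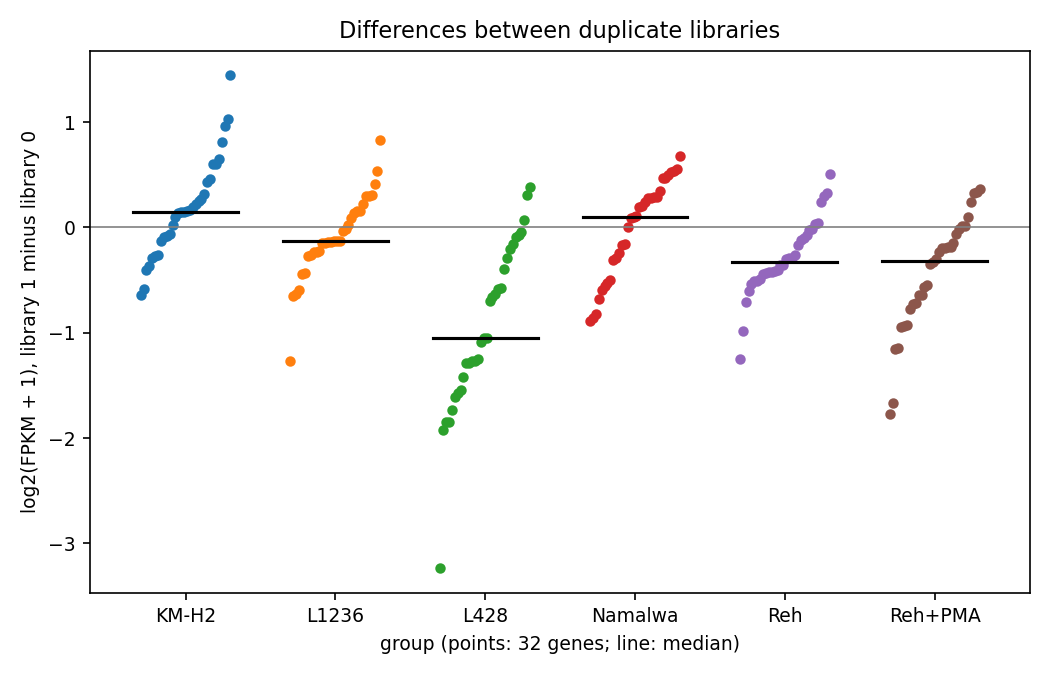
Difference between the duplicate libraries of each group, library 1 minus library 0, in log2(FPKM + 1), with 1 point for each of the 32 genes and a line at their median. L428 stands lowest, with a median of -1.05, and Namalwa's median is 0.10.

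Markers mostly fitted the labels of the lines. TNFRSF8, which codes for CD30, the surface marker of Hodgkin cells, was at 19.1 to 63.7 FPKM in the 6 cHL libraries and at no more than 0.505 in the others. CCL17 was at 12.6 to 705 FPKM in cHL libraries and at no more than 0.267 elsewhere, while CSF1R was at no more than 2.05 in cHL libraries and at 11.8 and 11.2 in Reh+PMA. Of the B-lineage list, CD79A and CD79B were at 2.55 FPKM or less in every cHL library, MS4A1 was at 0 and EBF1 at no more than 3.01, and PAX5 was above 2 FPKM among the cHL lines only in L1236 (33.8 and 19.8). DNTT (87.9 and 103 FPKM) and RAG1 (435 and 384) marked Reh as a precursor line. In Namalwa DNTT was listed at 0, but RAG1 was at 35.7 and 19.2. VPREB1, from the same list, was listed at 0 in Reh and at 11.4 and 7.89 in Namalwa. MME and BCL6 were above 28 FPKM in Namalwa and in Reh. KM-H2 held the T cell gene CD3D at 13.5 and 22.5 FPKM and the myeloid gene CD14 at 5.79 and 4.56, with CD3E and LYZ at no more than 0.591 in that line. The liver genes ALB and TTR were at no more than 0.266 FPKM in all 12 libraries.

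All 32 genes passed the filter of a mean of at least 1 FPKM over the 12 libraries, which 12929 of the 26210 genes passed. In every library, 28 of the 32 were at 1 FPKM or more. The exceptions are the desaturase genes SCD and FADS1 and the elongase gene ELOVL6, each under 1 FPKM in 4 libraries, and the desaturase gene FADS2, under 1 FPKM in 1. The highest group mean was under 3 times the lowest in 11 genes and over 10 times in 4, and the median of this ratio was 3.71. L1236 held the highest group mean for 13 genes, KM-H2 for 8, Reh+PMA for 4, L428 and Namalwa for 3 each and Reh for 1. The lowest mean was in Reh+PMA for 14 genes, Reh for 6, Namalwa for 5, L1236 for 3, and KM-H2 and L428 for 2 each.

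By role, the summed FPKM of the 3 genes that supply acetyl-CoA and acetoacetyl-CoA (ACLY, ACAT2 and AACS) ran from 97.9 in Reh+PMA library 1 to 268 in L1236 library 0. The 6 mevalonate pathway genes summed to 163 in L428 library 1 and to 508 in KM-H2 library 1. The 11 genes from squalene to cholesterol summed to 209 in L428 library 1 and to 843 in Reh+PMA library 0. In both of these groups of genes the lowest and the highest library were of the kind with SNORD95 above 0. The SREBP system (4 genes) summed to 108 in L428 library 1 and 536 in Reh+PMA library 0, the 6 fatty acid genes to 111 in Reh+PMA library 1 and 287 in L428 library 0, and STARD4 with LPIN1 to 18.8 in Namalwa library 0 and 125 in Reh+PMA library 0.

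**Figure D2:**
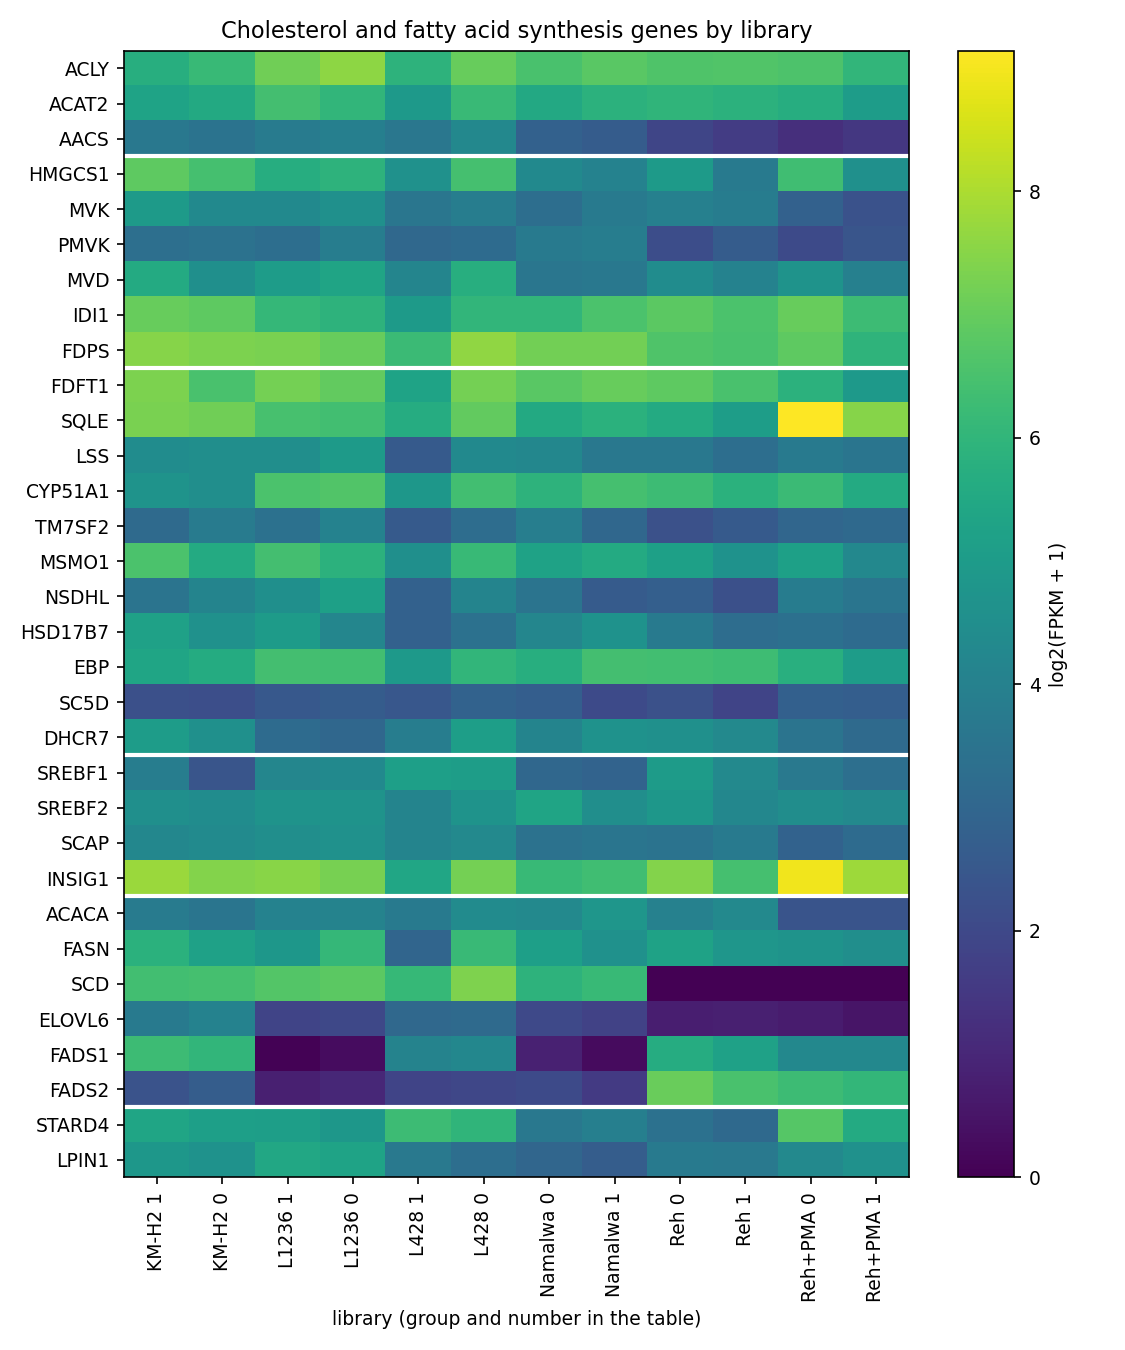
Heat map of log2(FPKM + 1) for the 32 genes, in order of their role, in the 12 libraries, named by group and by the number the table gives each duplicate. Dark cells mark low values, with SCD, FADS1 and ELOVL6 each under 1 FPKM in 4 libraries and FADS2 in 1.

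Reh+PMA was compared with Reh, where treatment and library kind change together. Rises and falls below are of Reh+PMA relative to Reh, and none can be assigned to PMA alone. A PMA response list was chosen with earlier results of these data known, so it is no independent check of the treatment. Of its genes, EGR1, FOS, CD69, CCL4 and RELB rose and the corepressor gene CBFA2T3 fell, 6 of 6, with CCL4 listed at 0 in Reh. Differences below are in log2(FPKM + 1) with limma's standard error, folds are ratios of group mean FPKM, n = 2 libraries in each group, and a gene is called at an adjusted p under 0.05 over all 12929 genes tested. Markers of the line moved too. RAG1 was at 5.09 and 11.9 FPKM in Reh+PMA (-5.53), MME at 7.72 and 11.1 against 123 and 118 in Reh (-3.57), and CD79B at 39.0 and 86.2 against 394 and 414 (-2.78). PAX5 (-1.97), EBF1 (-1.90) and DNTT (-0.76) were also called lower, while CD79A was not called (1.43, adjusted p 0.0576). Among the 32 genes, 3 were called higher (15.7% of all genes tested were) and 4 lower (17.6% of all). Their median difference was -0.18 against -0.03 over all genes, with 10 positive and 22 negative. With the library class term it was 0.12 against -0.11, with 18 positive and 14 negative, so its sign depends on the fit. Leaving out 1 library at a time it was -0.36 to -0.05. At an unadjusted p under 0.05, 6 were higher (20.4% of all genes were) and 9 lower (23.8% of all), and over the alternatives 3 to 6 were higher (15.2% to 22.8% of all) and 4 to 9 lower (17.2% to 27.8%).

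STARD4, which codes for a carrier of cholesterol between membranes, was at 9.64 and 7.71 FPKM in Reh libraries 0 and 1 and at 106 and 47.0 in Reh+PMA. Both treated libraries stood above both untreated libraries, and they differed from each other by more than 2-fold. The rise was 8.82-fold (difference 2.90 ± 0.34 (SE), adjusted p 0.000414). SQLE, the squalene epoxidase that takes the first oxygen-dependent step of sterol synthesis, was at 47.1 and 33.2 FPKM in Reh and 563 and 177 in Reh+PMA, again without overlap and with the treated libraries far apart. It rose 9.23-fold (2.97 ± 0.54, adjusted p 0.00349). LPIN1, a phosphatidate phosphatase of glycerolipid synthesis, was at 12.3 and 12.1 FPKM in Reh and 18.7 and 23.7 in Reh+PMA. Its rise was smaller, 1.74-fold (0.74 ± 0.21, adjusted p 0.0255), and the LPIN1 call was lost without Reh library 0, Reh library 1 or Reh+PMA library 1 (adjusted p 0.107 to 0.138) or with the library class term (0.165), with adjusted p from 0.0193 to 0.165 over its 12 alternatives. With the library class term SQLE differed by 3.32 and STARD4 by 2.62, and both kept their call in all 12 alternatives run. Over these alternatives the difference ran from 2.14 to 3.80 for SQLE and from 2.32 to 3.47 for STARD4. The library class term comes from the cHL lines alone, so a call kept under it does not separate PMA from library kind. In KM-H2, L1236 and L428, library 1 minus library 0 was 0.14, 0.09 and -1.28 for SQLE. For STARD4 it was 0.22, 0.31 and 0.31. In bulk RNA, fewer cells with a transcript and less of it in each cell cannot be told apart, here or below.

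Among the genes that fell was ACACA, the acetyl-CoA carboxylase that commits carbon to fatty acids, at 15.0 and 18.8 FPKM in Reh and 4.21 and 4.24 in Reh+PMA. The treated pair was nearly equal and lay below the untreated pair, a 4-fold fall (-1.77 ± 0.27, adjusted p 0.00143), and the call held in all 12 alternatives. MVK, mevalonate kinase, was at 14.9 and 13.2 FPKM in Reh and 6.19 and 3.92 in Reh+PMA, and fell 2.78-fold (-1.34 ± 0.29, adjusted p 0.00794). The MVK call was lost without Reh library 0 or Reh+PMA library 1 (adjusted p 0.0587 to 0.0588), with adjusted p from 0.00790 to 0.0588 over its 12 alternatives. FADS1, the delta-5 desaturase, was at 49.6 and 36.7 FPKM in Reh and 18.4 and 18.1 in Reh+PMA. Its treated libraries were close to each other and below both untreated ones, a 2.36-fold fall (-1.18 ± 0.25, adjusted p 0.00689), which was not called without Reh library 0 (adjusted p 0.0657) or with a pseudocount of 0.1 (0.117), with adjusted p from 0.00563 to 0.117 over its 12 alternatives. SCAP, the SREBP carrier, was at 10.3 and 12.3 FPKM in Reh and 6.33 and 8.24 in Reh+PMA, also without overlap. Its fall was the smallest called (-0.57 ± 0.19, adjusted p 0.0466) and was lost without Reh library 0, Reh library 1 or Reh+PMA library 0 (adjusted p 0.0957 to 0.247), with median-of-ratios scaling (0.0648), with a block for the library number (0.0510), with the library class term (0.228) or when only the 4 libraries compared were fitted (0.114), with adjusted p from 0.0444 to 0.247 over its 12 alternatives.

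Other sterol genes had wide gaps between their duplicates. INSIG1, the sterol-dependent anchor of SCAP, was at 172 and 86.7 FPKM in Reh and at 496 and 224 in Reh+PMA. The treated libraries were the higher ones, but the difference did not pass the test (1.44 ± 0.59, adjusted p 0.0929). HMGCS1, the synthase that makes the precursor of mevalonate, was at 30.3 and 12.1 FPKM in Reh and 80.0 and 22.8 in Reh+PMA. Its groups overlapped, with 1 low treated library, and it was not called (1.11 ± 0.70, adjusted p 0.254). FDFT1, squalene synthase, stood just before SQLE in the pathway with a difference in the opposite direction, at 117 and 91.5 FPKM in Reh and 57.6 and 29.6 in Reh+PMA (-1.31 ± 0.57, adjusted p 0.111). SREBF1 was at 31.0 and 18.6 FPKM in Reh and 11.8 and 9.20 in Reh+PMA (-1.13 ± 0.42, adjusted p 0.0642), and SREBF2 at 27.5 and 17.8 and 21.5 and 18.7 (-0.14 ± 0.32). None of these 5 passed.

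Some genes passed only in an alternative fit. NSDHL, a sterol dehydrogenase, was at 5.74 and 3.75 FPKM in Reh and 13.5 and 10.7 in Reh+PMA (1.20 ± 0.47, adjusted p 0.0767), and it was called higher with a block for the library number (adjusted p 0.00689), with the library class term (0.0104) or when only the 4 libraries compared were fitted (0.0449), with adjusted p from 0.00689 to 0.302 over its 12 alternatives. With the library class term its difference was 2.04. SC5D, the sterol C5-desaturase, was called higher with a block for the library number (adjusted p 0.0355), with adjusted p from 0.0355 to 0.326 over its 12 alternatives, and FADS2 was called lower with a block for the library number (adjusted p 0.0311), with adjusted p from 0.0311 to 0.456 over its 12 alternatives. TM7SF2, a sterol reductase, was called higher with the library class term (adjusted p 0.0304), with adjusted p from 0.0304 to 0.552 over its 12 alternatives. SREBF1 was called lower with the library class term (adjusted p 0.0471), with adjusted p from 0.0471 to 0.325 over its 12 alternatives. DHCR7, the last reductase of cholesterol synthesis, was called lower when only the 4 libraries compared were fitted (adjusted p 0.0340), with adjusted p from 0.0340 to 0.236 over its 12 alternatives. With the block 5 of the 32 were called higher (15.6%, against 17.1% of all genes). Without Reh library 0, 1 of the 32 was called lower (3.12%, against 8.38% of all genes), where 4 were with it (12.5%, against 17.6%). SCD was listed at 0.0192 and 0 FPKM in Reh and at 0 and 0.0115 in Reh+PMA, so no difference could be measured for it.

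**Figure D3:**
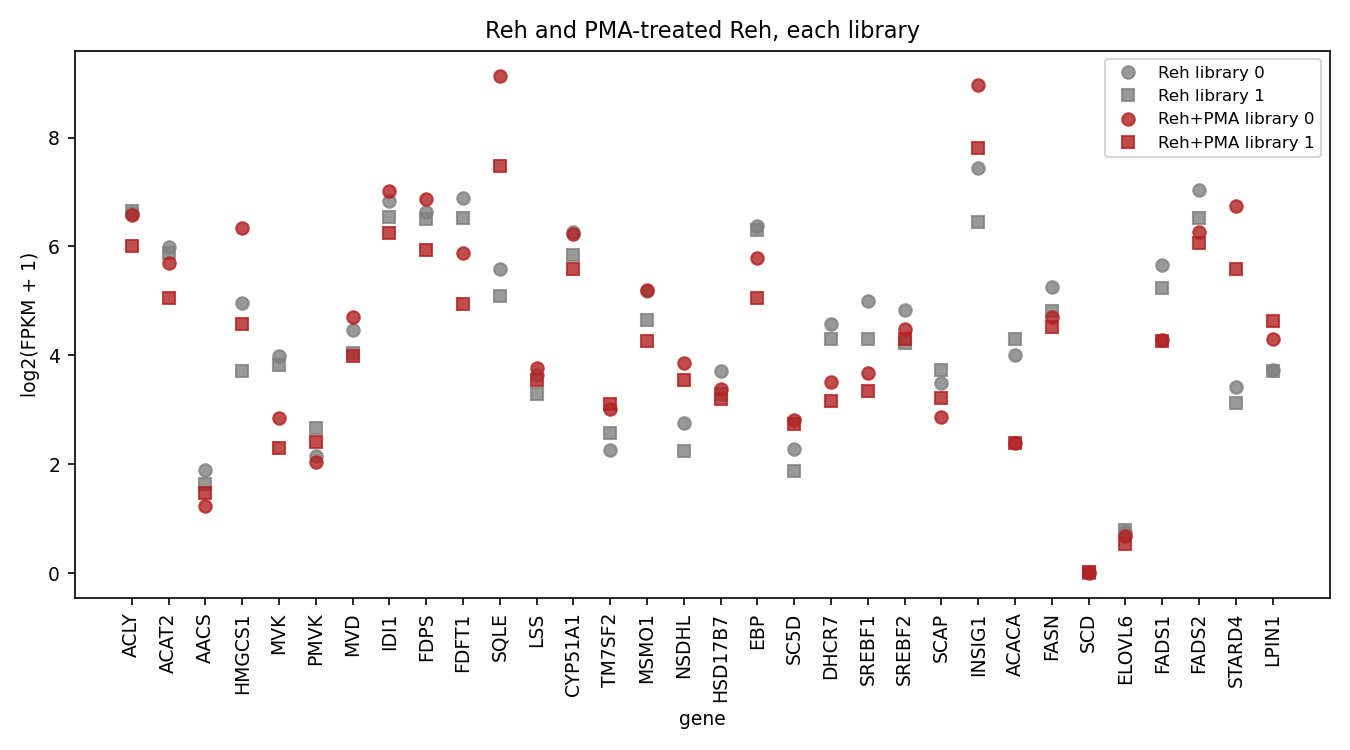
Level of each of the 32 genes in log2(FPKM + 1) in Reh (grey) and Reh+PMA (red), with circles for library 0 and squares for library 1. SQLE and STARD4 show the widest rise, and ACACA shows 2 treated libraries that nearly coincide below the untreated ones.

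Lists of neighbouring genes were counted in the same comparison, where 15.7% of all genes tested were called higher and 17.6% lower. Of 9 genes of sterol sensing, trafficking and esterification, 2 were called higher, NPC1 (1.73 ± 0.23, adjusted p 0.000647), which moves cholesterol out of lysosomes, and MBTPS1 (0.78), the site-1 protease that cleaves SREBPs, and 1 lower, ERLIN1 (-0.86). Of 7 genes of cholesterol efflux and the LXR receptors, 0 were called higher and 1 lower, LPCAT3 (-0.89). Of 9 genes of the isoprenoid branch, 1 was called higher, GGPS1 (1.44), and 0 lower. Of 15 tested genes of other lipogenesis and glycerolipid synthesis, 1 was called higher and 4 lower, among them SCD5 (-1.55), the citrate carrier SLC25A1 (-1.52) and ACSS2 (-1.33), which makes acetyl-CoA from acetate. Fatty acid oxidation gave 2 higher and 1 lower of 12, with HADH at -1.07. Of 10 cell cycle genes, 0 were called higher and 4 lower, with MCM2 at -2.08, PCNA at -1.86, MCM5 at -1.35 and CCNA2 at -1.02. The part of growth rate in the lipid gene differences was not tested.

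Sequence before the start sites is a feature the rule of the list did not use. It was taken from a RefSeq table (GRCh38.p14) that holds 35116 promoters, among them 39 of 28 of these genes. SQLE, FDFT1, FASN and ACAT2 have no entry. Motifs were searched on both strands in the 250 bases before each start. TCACNCCAC, a form of the sterol regulatory element, was found in 1 of the 39 promoters (2.56%), that of SREBF2, and in 0.883% of all promoters. CACGTG, an E-box, was in 4 of 39 (10.3%, those of SCAP, INSIG1 and SC5D) against 6.34% of all. CCAAT was in 23 of 39 (59.0%, 19 of 28 genes) against 32% of all, and GGGCGG in 34 of 39 (87.2%, 27 of 28 genes) against 42.6% of all. Several genes have more than 1 entry, so the 39 promoters are not independent, and a match is a description of letters and not a site. In the sequences below, capitals mark matches to the first 3 of these motifs on either strand. STARD4 lies at chr5:111512536-111512785, minus strand, INSIG1 at chr7:155297628-155297877, plus strand, SREBF2 at chr22:41832855-41833104, plus strand, and SCD at chr10:100346983-100347232, plus strand.
STARD4: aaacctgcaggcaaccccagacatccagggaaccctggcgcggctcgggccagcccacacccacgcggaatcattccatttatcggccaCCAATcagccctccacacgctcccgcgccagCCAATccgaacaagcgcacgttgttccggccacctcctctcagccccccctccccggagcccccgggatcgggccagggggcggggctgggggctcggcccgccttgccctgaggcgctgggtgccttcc
INSIG1: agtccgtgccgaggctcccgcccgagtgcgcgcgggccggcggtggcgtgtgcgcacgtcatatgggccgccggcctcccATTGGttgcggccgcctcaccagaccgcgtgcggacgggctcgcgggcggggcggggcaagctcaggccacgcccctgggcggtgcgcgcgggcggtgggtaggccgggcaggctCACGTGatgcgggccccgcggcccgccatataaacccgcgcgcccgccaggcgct
SREBF2: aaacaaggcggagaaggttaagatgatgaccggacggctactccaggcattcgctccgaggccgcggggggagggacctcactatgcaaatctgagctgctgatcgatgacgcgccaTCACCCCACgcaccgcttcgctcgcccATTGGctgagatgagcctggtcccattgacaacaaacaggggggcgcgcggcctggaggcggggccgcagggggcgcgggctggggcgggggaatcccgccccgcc
SCD: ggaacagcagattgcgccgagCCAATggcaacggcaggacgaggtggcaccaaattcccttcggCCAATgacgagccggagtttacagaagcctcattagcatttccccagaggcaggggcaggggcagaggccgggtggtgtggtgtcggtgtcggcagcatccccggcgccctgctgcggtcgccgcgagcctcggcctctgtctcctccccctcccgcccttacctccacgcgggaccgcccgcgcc

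STARD4 and SCD each hold 2 CCAAT matches, INSIG1 holds 1 with an E-box, and SREBF2 holds the TCACNCCAC match with 1 CCAAT.

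Namalwa and Reh, the control lines, were compared with each other before they were pooled as controls, since genes that differ between them make a poor common baseline. Of the 32 genes, 4 were called higher in Namalwa (10.6% of all genes tested were) and 4 lower (14.3% of all), shares near those of all genes. The median difference was 0.16 against 0 over all genes. Leaving out 1 library at a time, it ran from 0.04 (without Reh library 1) to 0.35 (without Reh library 0). The largest differences were in the fatty acid genes.

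SCD, the stearoyl-CoA desaturase that makes oleate, was at 58.8 and 69.8 FPKM in Namalwa and at 0.0192 and 0 in Reh. It was present in every line but Reh, treated or not, and no fold is given because Reh sat at the level of single fragments (6.01 ± 0.34, adjusted p 1.92e-06). FADS1 was at 0.790 and 0.190 FPKM in Namalwa against 49.6 and 36.7 in Reh (-4.90 ± 0.25, adjusted p 9.90e-07). FADS2, the delta-6 desaturase, was at 3.11 and 1.91 FPKM in Namalwa against 131 and 91.3 in Reh (-4.99 ± 0.25, adjusted p 1.02e-06). Reh therefore had high FADS1 and FADS2 with almost no SCD, and Namalwa the opposite. ELOVL6, the elongase that makes stearate from palmitate, was at 3.07 and 2.45 FPKM in Namalwa and 0.693 and 0.737 in Reh (3.86-fold, 1.13 ± 0.19, adjusted p 0.00172). These 4 calls and that of PMVK, phosphomevalonate kinase, at 12.8 and 13.6 FPKM in Namalwa and 3.44 and 5.30 in Reh (1.42 ± 0.26, adjusted p 0.00298), held in all 12 alternatives.

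The other 3 calls were weaker. AACS, which makes acetoacetyl-CoA in the cytosol, was at 6.08 and 5.36 FPKM in Namalwa and 2.72 and 2.10 in Reh (0.98 ± 0.24, adjusted p 0.0155), lost without Namalwa library 0, Namalwa library 1 or Reh library 1 (adjusted p 0.0506 to 0.115), with adjusted p from 0.0122 to 0.115 over its 12 alternatives. SREBF1 was at 7.33 and 6.44 FPKM in Namalwa and 31.0 and 18.6 in Reh (-1.67 ± 0.42, adjusted p 0.0168), lost without Namalwa library 0, Namalwa library 1 or Reh library 0 (adjusted p 0.0642 to 0.136), with adjusted p from 0.0120 to 0.136 over its 12 alternatives. LPIN1 was at 7.13 and 5.55 FPKM in Namalwa and 12.3 and 12.1 in Reh (-0.85 ± 0.21, adjusted p 0.0160), lost without Namalwa library 1, Reh library 0 or Reh library 1 (adjusted p 0.0796 to 0.0988) or when only the 4 libraries compared were fitted (0.0538), with adjusted p from 0.0107 to 0.0988 over its 12 alternatives. The count called lower was 2 of 32 (6.25%) without Reh library 0 (9.20% of all genes) or without Namalwa library 1 (10.4% of all), where with every library 14.3% of all genes were called lower. TM7SF2 passed, as higher in Namalwa, without Namalwa library 1 (adjusted p 0.0423), with a block for the library number (0.0364) or with the library class term (0.0208), with adjusted p from 0.0208 to 0.380 over its 12 alternatives, and FDPS when only the 4 libraries compared were fitted (adjusted p 0.0371), with adjusted p from 0.0371 to 0.634 over its 12 alternatives.

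In the neighbouring lists, Namalwa had 1 higher and 1 lower of 9 sterol sensing genes (the lower is NPC2, -1.23). Among all genes tested, 10.6% were called higher and 14.3% lower in Namalwa. Of 7 efflux genes 2 were higher and 0 lower, the cholesterol exporters ABCG1 (2.33) and ABCA1 (1.84). The isoprenoid branch gave 1 higher and 0 lower of 9, and other lipogenesis 2 higher and 4 lower of 15. In that last list DGAT2, which makes triglyceride, was listed at 0 in Reh and at 7.35 FPKM on average in Namalwa, and ACSS2 was lower (-2.84). Fatty acid oxidation had 0 higher and 3 lower of 12, led by CPT1A (-2.84), and the 10 cell cycle genes had 0 in either direction, with 0 at an unadjusted p under 0.05.

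**Figure D4:**
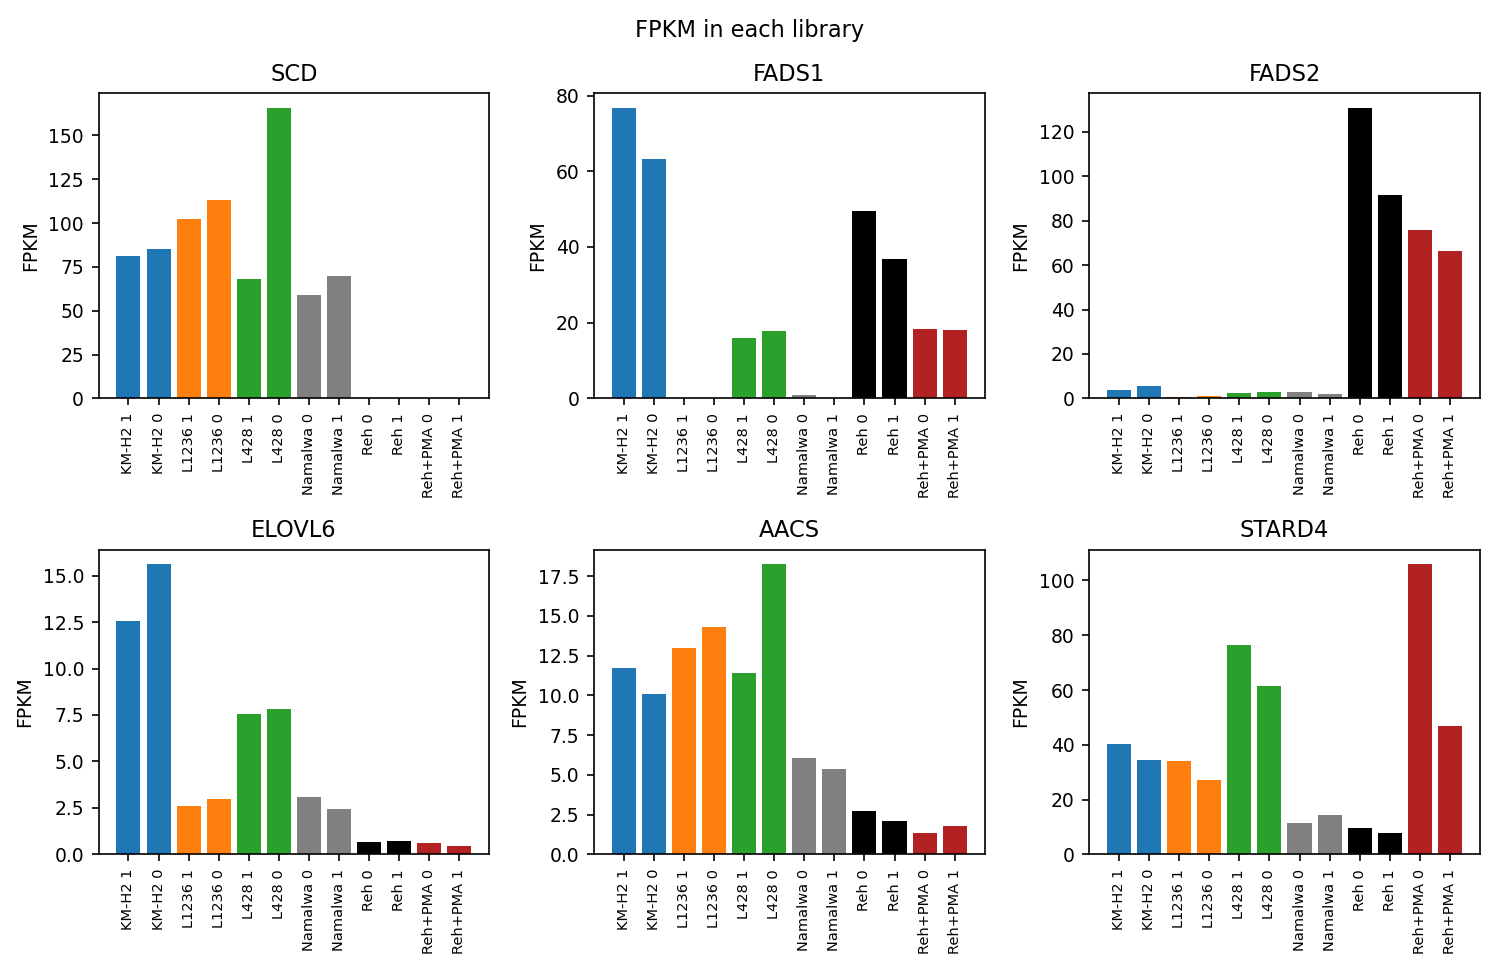
FPKM of SCD, FADS1, FADS2, ELOVL6, AACS and STARD4 in each of the 12 libraries, as bars from 0, coloured by group. SCD is near 0 in Reh and Reh+PMA, FADS2 is above 60 FPKM only in those 4 libraries, and FADS1 is under 1 FPKM in L1236 and Namalwa.

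The cHL lines were compared with Namalwa and Reh to ask what separates Hodgkin lines from other B-lineage lines. With the line as the unit, 3 lines against 2, limma called 0 of the 32 genes higher (0.425% of all genes tested were) and 0 lower (0.286%). At an unadjusted p under 0.05, 6 were higher (7.56% of all genes were) and 0 lower (7.12% of all). The count of higher genes was 2 without L428 library 0 (7.19% of all), 10 without L428 library 1 (7.28%) and 9 without the cHL libraries numbered 1 (6.77%). The 6 were STARD4, HMGCS1, AACS, MVD, SQLE and SCAP, with differences of 1.92, 1.73, 1.54, 1.14, 1.15 and 0.80. Their lowest adjusted p was 0.172, for STARD4. The median difference of the 32 was 0.40 against -0.00 over all genes, with 22 positive and 10 negative, and it was 0.24 without L428 library 0 and 0.53 without L428 library 1. When the spread between libraries was used in place of that between lines, 12 were called higher (27.7% of all genes were), AACS, HMGCS1, MVK, MVD, SQLE, NSDHL, SCAP, SCD, ELOVL6, FADS1, STARD4 and LPIN1, and 1 lower (26.3% of all), FADS2. That count treats libraries of 1 line as independent. The lists of neighbouring genes each had 0 called, with 1 of 9 sterol sensing genes, 1 of 12 oxidation genes and 1 of 15 other lipogenesis genes higher at an unadjusted p under 0.05, and 1 isoprenoid gene, 1 other lipogenesis gene and 4 cell cycle genes lower.

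Group ranges overlapped for most genes. All 6 cHL libraries stood above all 4 control libraries in 3 of the 32 genes (9.77% of all genes tested did) and below them in 0 (8.65% of all). The 3 are AACS, STARD4 and SCAP. AACS was at 10.1 and 11.7 FPKM in KM-H2, 14.3 and 13.0 in L1236 and 18.3 and 11.4 in L428, against 2.10 to 6.08 in the controls. STARD4 was at 34.3 and 40.2 FPKM in KM-H2, 27.3 and 34.1 in L1236 and 61.5 and 76.3 in L428, against 7.71 to 14.4, so L428 was the highest untreated line. SCAP was at 19.5 and 17.8 FPKM in KM-H2, 23.8 and 21.7 in L1236 and 18.9 and 16.3 in L428, against 9.97 to 12.3. The count above was 10 without L428 library 1 (10.6% of all genes then stood above), and 5 without Namalwa library 0 (11.5%), Namalwa library 1 (10.7%) or Reh library 0 (10.7%). L428 library 1 was the lowest cHL library for HMGCS1, SQLE and MVD, at 23.4, 50 and 17.0 FPKM.

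Each cHL line was then compared with the mean of Namalwa and Reh. These 3 comparisons share the same 4 control libraries, and the PMA and Namalwa comparisons share the Reh libraries with them, so their values are not independent. In KM-H2, 11 of the 32 genes were called higher (23.5% of all genes tested) and 3 lower (23.5%). In L1236, 9 were called higher (23.1%) and 3 lower (22.8%). In L428, 7 were called higher (23.8%) and 3 lower (23.6%). The count of higher genes in KM-H2, at 34.4% of the 32, was above the share of all genes. Those in L1236, at 28.1%, and in L428, at 21.9%, were near it. The KM-H2 count was 13 with the library class term (40.6%, against 23.2% of all), 12 with the block (37.5%, against 24.7%) and 11 without KM-H2 library 0 (34.4%, against 22.0%). Without KM-H2 library 1 it was 7 of 32 (21.9%, against 19.2% of all genes), and without the cHL libraries numbered 1 it was 6 (18.8%, against 20.3%). The L1236 count was 12 with the block (37.5%, against 24.1%), 11 with the library class term (34.4%, against 22.2%), and 7 without L1236 library 0 (21.9%, against 19.3%) or L1236 library 1 (21.9%, against 16.6%). The L428 count was 9 without L428 library 1 (28.1%, against 17.7%) and 5 without L428 library 0 (15.6%, against 22.1%). The counts of lower genes were below the share of all genes in each line, but not without L428 library 0, where L428 had 9 of 32 (28.1%, against 21.2% of all). The median differences were 0.65, 0.62 and 0.04, against -0.01, -0.02 and -0.02 over all genes. In L428 the median was 0.65 without L428 library 1 (27 positive and 5 negative), -0.45 without L428 library 0 (13 and 19) and 0.20 with the library class term (21 and 11). In KM-H2 it was 0.52 to 0.85 over the alternatives, and in L1236 0.51 to 0.74.

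AACS was called in all 3 lines (1.31 ± 0.21, adjusted p 0.000768 in KM-H2, 1.62 ± 0.21, adjusted p 0.000206 in L1236, and 1.70 ± 0.21, adjusted p 0.000154 in L428). SCAP was called in all 3 lines as well (0.74 ± 0.17, adjusted p 0.00555 in KM-H2, 1.01 ± 0.17, adjusted p 0.000950 in L1236, and 0.65 ± 0.17, adjusted p 0.01 in L428). The SCAP call in L428 was lost without L428 library 0 (adjusted p 0.0663), with adjusted p from 0.00754 to 0.0663 over its 14 alternatives. STARD4 was 3.44-fold higher in KM-H2 (1.72 ± 0.30, adjusted p 0.00128), 2.84-fold in L1236 (1.45 ± 0.30, adjusted p 0.00350) and 6.36-fold in L428 (2.59 ± 0.30, adjusted p 0.000100). The STARD4 call in KM-H2 was lost without the cHL libraries numbered 1 (adjusted p 0.0569), with adjusted p from 0.00113 to 0.0569 over its 14 alternatives, and that in L1236 without the cHL libraries numbered 1 (adjusted p 0.0977), with adjusted p from 0.00301 to 0.0977 over its 14 alternatives. AACS kept its call in all 14 alternatives in each line.

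The 4 genes whose highest group mean was over 10 times the lowest are SCD, ELOVL6, FADS1 and FADS2. SCD was at 85.4 and 80.9 FPKM in KM-H2, 113 and 102 in L1236 and 166 and 68.2 in L428. Its differences from the controls, 3.38 ± 0.29 (SE), 3.74 ± 0.29 (SE) and 3.73 ± 0.29 (SE), average over Reh near 0 and Namalwa at 64.3 FPKM, and L428 library 1, at 68.2 FPKM, did not exceed both Namalwa libraries. ELOVL6 was at 15.6 and 12.6 FPKM in KM-H2, 2.96 and 2.63 in L1236 and 7.85 and 7.57 in L428. KM-H2 was highest and L428 second, while L1236 lay within the range of Namalwa, with differences of 2.57 ± 0.16 (SE), 1.78 ± 0.16 (SE) and 0.58 ± 0.16 (SE). The L1236 call was lost without L1236 library 0 (adjusted p 0.0854), with adjusted p from 0.00964 to 0.0854 over its 14 alternatives. FADS1 was at 63.2 and 76.7 FPKM in KM-H2, 0.234 and 0.0311 in L1236 and 17.8 and 15.9 in L428. KM-H2 lay above both Reh libraries (3.15 ± 0.21, adjusted p 3.37e-06), and L1236 lay near 0, as Namalwa did (-2.82 ± 0.21, adjusted p 6.24e-06).

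L428 fell between the control lines in FADS1, and its direction depends on the scale. It was called higher on the log scale (1.16 ± 0.21, adjusted p 0.00186), but its mean of 16.9 FPKM was below the control mean of 21.8. FADS2 was at 5.48 and 4.02 FPKM in KM-H2, 1.02 and 0.725 in L1236 and 2.86 and 2.67 in L428. It was called lower in all 3 lines (-1.78, -3.39 and -2.38). Reh was at 131 and 91.3 and Namalwa at 3.11 and 1.91. L1236 lay below every control library, L428 between the Namalwa libraries and KM-H2 above both of them. On chromosome 11 (hg19) FADS1, at 61567099 to 61596790 on the minus strand, lies wholly within the annotated span of FADS2. FADS2 runs from 61560452 to 61634826 on the plus strand, so that the spans share 29692 bases, all of FADS1. FADS2 also overlaps FEN1, which is on the same strand. How fragments in such overlaps were counted is not given in the sources used here. The lines did not keep a fixed ratio of both genes, since KM-H2 had FADS1 well above FADS2 and Reh the reverse.

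**Figure D5:**
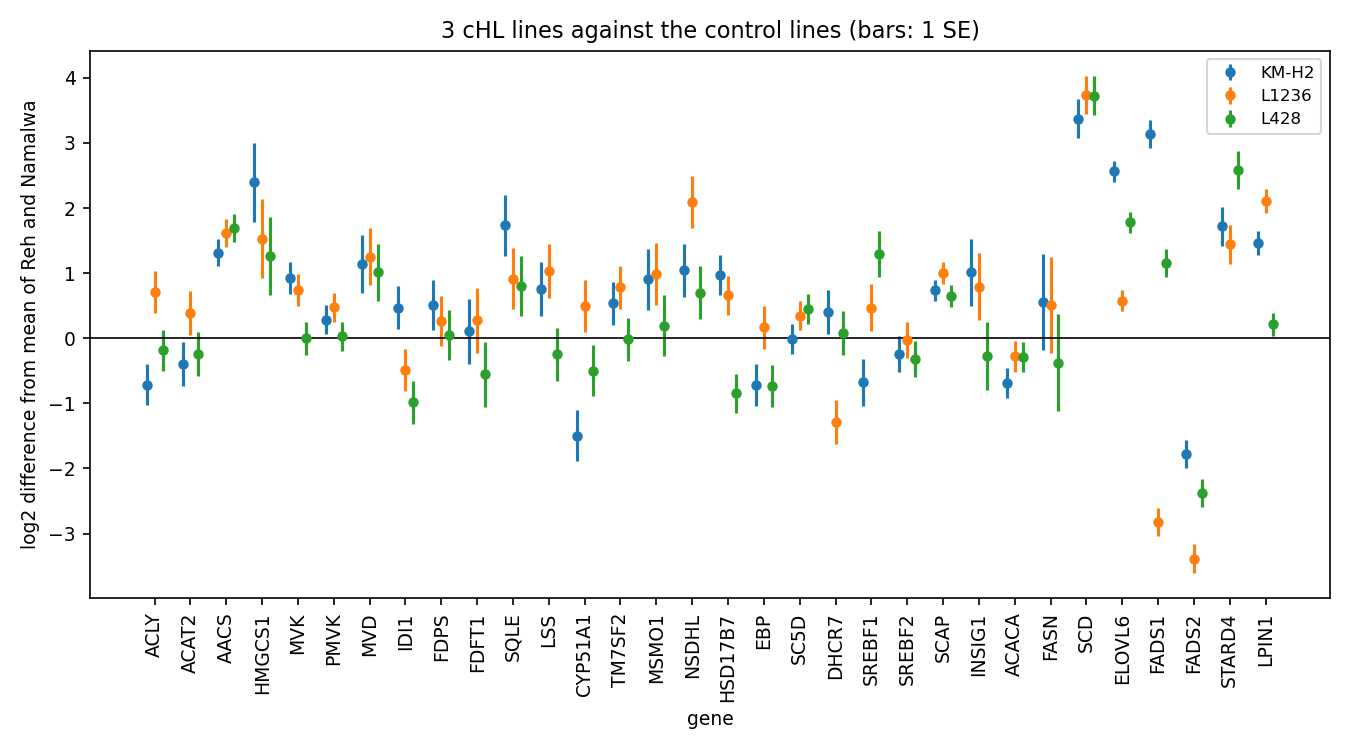
Difference in log2(FPKM + 1) between each cHL line and the mean of Reh and Namalwa for the 32 genes, with bars of 1 SE from limma. Among the genes above 0 in all 3 lines are SCD, ELOVL6, AACS, SCAP and STARD4, and FADS2 is among those below 0 in all 3. FADS1 runs from -2.82 in L1236 to 3.15 in KM-H2.

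In KM-H2 the sterol genes called higher were HMGCS1, MVK, SQLE and HSD17B7. HMGCS1 was at 85.9 and 116 FPKM against 12.1 to 30.3 in the controls (2.39 ± 0.60, adjusted p 0.00980), and SQLE at 143 and 158 against 33.2 to 55.5 (1.73 ± 0.47, adjusted p 0.0133). Both stood clear of the controls. HMGCS1 lost its call without KM-H2 library 1 (adjusted p 0.0819) or without the cHL libraries numbered 1 (0.104), with adjusted p from 0.00306 to 0.104 over its 14 alternatives. SQLE lost its call without KM-H2 library 1 or KM-H2 library 0 (adjusted p 0.0603 to 0.0840) or without the cHL libraries numbered 1 (0.119), with adjusted p from 0.00877 to 0.119 over its 14 alternatives. MVK was at 19.1 and 30.5 FPKM (0.93) and lost its call without KM-H2 library 1 (adjusted p 0.136) or without the cHL libraries numbered 1 (0.187), with adjusted p from 0.0104 to 0.187 over its 14 alternatives. HSD17B7, a sterol ketone reductase, was at 23.8 and 36.6 FPKM (0.97) and lost its call without KM-H2 library 1, Namalwa library 0 or Reh library 1 (adjusted p 0.0686 to 0.206), with the library class term (0.0649) or without the cHL libraries numbered 1 (0.121), with adjusted p from 0.0250 to 0.206 over its 14 alternatives. The KM-H2 counts called higher without KM-H2 library 1, or without the cHL libraries numbered 1, are given above with the shares of all genes.

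LPIN1 was called higher in KM-H2 as well, at 24.5 and 27.5 FPKM against 5.55 to 12.3 in the controls (1.46 ± 0.18, adjusted p 0.000172). CYP51A1, which removes a methyl group from lanosterol, was lower, at 22.1 and 24.9 FPKM against 56.3 to 85.1 (-1.50 ± 0.39, adjusted p 0.0119). KM-H2 had the lowest CYP51A1 of the 6 groups, and the call was lost without KM-H2 library 1 or KM-H2 library 0 (adjusted p 0.0571 to 0.0745), with adjusted p from 0.0101 to 0.0745 over its 14 alternatives. ACACA was at 10.7 and 12.9 FPKM (-0.69), lost without KM-H2 library 1, KM-H2 library 0, Namalwa library 1 or Reh library 1 (adjusted p 0.0725 to 0.175), with the library class term (0.0824) or without the cHL libraries numbered 1 (0.0637), with adjusted p from 0.0255 to 0.175 over its 14 alternatives. The count called lower was 1 of 32 (3.12%) without KM-H2 library 0 (20.8% of all genes). Further genes passed only in alternatives: NSDHL as higher without Namalwa library 0 (adjusted p 0.0418), with a block for the library number (0.00392) or with the library class term (0.00532), with adjusted p from 0.00392 to 0.307 over its 14 alternatives, LSS as higher with the library class term (adjusted p 0.0309), with adjusted p from 0.0309 to 0.35 over its 14 alternatives, TM7SF2 as higher with the library class term (adjusted p 0.0259), with adjusted p from 0.0259 to 0.717 over its 14 alternatives, and MVD as higher without KM-H2 library 0 (adjusted p 0.0436), with adjusted p from 0.0436 to 0.409 over its 14 alternatives. SREBF1 passed as lower without KM-H2 library 1 (adjusted p 0.00650) or without the cHL libraries numbered 1 (0.0307), with adjusted p from 0.00650 to 0.921 over its 14 alternatives.

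In L1236 NSDHL was the sterol gene furthest above the controls, at 35.8 and 22.4 FPKM against 3.75 to 10.4 (4.66-fold, 2.09 ± 0.41, adjusted p 0.00246). LPIN1 was at 38.9 and 43.6 FPKM, its highest level among the 6 groups (4.45-fold, 2.10 ± 0.18, adjusted p 1.50e-05). Both calls held in all 14 alternatives. MVK (23.1 and 19.5 FPKM, 0.74) lost its call without L1236 library 1, L1236 library 0, Namalwa library 0, Reh library 0 or Reh library 1 (adjusted p 0.0641 to 0.191), without the filter on low values (0.0517), with the library class term (0.0689) or without the cHL libraries numbered 1 (0.0907), with adjusted p from 0.0330 to 0.191 over its 14 alternatives. MVD, which decarboxylates mevalonate diphosphate (39.1 and 32.2 FPKM, 1.25), lost its call without L1236 library 1, L1236 library 0, Namalwa library 0, Namalwa library 1, Reh library 0 or Reh library 1 (adjusted p 0.0634 to 0.194) or without the filter on low values (0.0719), with adjusted p from 0.0351 to 0.194 over its 14 alternatives. DHCR7 was lower, at 7.36 and 8.18 FPKM against 16.3 to 24.4 in the controls (-1.28 ± 0.34, adjusted p 0.0124), lost without L1236 library 1 or L1236 library 0 (adjusted p 0.0624 to 0.0799), with adjusted p from 0.0114 to 0.0799 over its 14 alternatives.

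The SREBP system is given for each line, since its proteins regulate the other genes. INSIG1 was at 174 and 217 FPKM in KM-H2, 154 and 180 in L1236, 151 and 41.3 in L428 and 70.1 and 80.2 in Namalwa. Only KM-H2 lay above all 4 control libraries, and none of the 3 cHL lines was called (1.01 ± 0.52, adjusted p 0.137 in KM-H2, 0.79 ± 0.52, adjusted p 0.239 in L1236 and -0.27 ± 0.52, adjusted p 0.699 in L428). SREBF1 was at 4.32 and 13.5 FPKM in KM-H2, 19.4 and 17.4 in L1236 and 7.33 and 6.44 in Namalwa, and neither KM-H2 (-0.68 ± 0.36, adjusted p 0.154) nor L1236 (0.47 ± 0.36, adjusted p 0.321) was called. SREBF2 was at 20.6 and 22.2 FPKM in KM-H2, 25.1 and 24.8 in L1236, 25.0 and 16.4 in L428 and 39.3 and 21.8 in Namalwa. The groups overlapped, with no call in KM-H2 (-0.24 ± 0.27, adjusted p 0.504), L1236 (-0.03 ± 0.27, adjusted p 0.950) or L428 (-0.32 ± 0.27, adjusted p 0.372). Namalwa differed from Reh by 0.39 in SREBF2, -0.70 in INSIG1 and -0.10 in SCAP, none of them called.

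Other L1236 genes passed only in alternatives. HMGCS1 was called higher without Reh library 0 (adjusted p 0.0494) or with a block for the library number (0.0250), with adjusted p from 0.0250 to 0.230 over its 14 alternatives. LSS, lanosterol synthase, was called higher with a block for the library number (adjusted p 0.0255), with the library class term (0.0128) or without the cHL libraries numbered 1 (0.0304), with adjusted p from 0.0128 to 0.299 over its 14 alternatives. TM7SF2 was called higher without Namalwa library 0 (adjusted p 0.0350), with a block for the library number (0.0403) or with the library class term (0.00892), with adjusted p from 0.00892 to 0.422 over its 14 alternatives. HSD17B7 passed without L1236 library 0 (adjusted p 0.0459), with adjusted p from 0.0459 to 0.647 over its 14 alternatives, ACLY with the library class term (adjusted p 0.0106), with adjusted p from 0.0106 to 0.396 over its 14 alternatives, and FASN without the cHL libraries numbered 1 (adjusted p 0.0382), with adjusted p from 0.0382 to 0.947 over its 14 alternatives, all as higher.

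In L428 many of the sterol genes differed between libraries 0 and 1. SREBF1 was among those that did not, at 32.6 and 34.3 FPKM in libraries 0 and 1 against 6.44 to 31.0 in the controls (1.29 ± 0.36, adjusted p 0.0155). Its duplicates were close and above every control library, but the call was lost without L428 library 1 or L428 library 0 (adjusted p 0.0618 to 0.0856), with adjusted p from 0.0153 to 0.0856 over its 14 alternatives. IDI1, the isomerase that makes the second isoprene unit, was at 64.2 and 30.5 FPKM against 63.3 to 114 (-0.98 ± 0.33, adjusted p 0.0337), and was lost without L428 library 1, Namalwa library 1, Reh library 0 or Reh library 1 (adjusted p 0.0531 to 0.332), without the filter on low values (0.0519), with the library class term (0.0837) or without the cHL libraries numbered 1 (0.404), with adjusted p from 0.00818 to 0.404 over its 14 alternatives. HSD17B7 was at 9.57 and 6.09 FPKM against 8.74 to 24.1 (-0.84 ± 0.30, adjusted p 0.0451), lost without L428 library 1, Namalwa library 1, Reh library 0 or Reh library 1 (adjusted p 0.0540 to 0.303), without the filter on low values (0.0687), with median-of-ratios scaling (0.0518), with a block for the library number (0.0508) or without the cHL libraries numbered 1 (0.184), with adjusted p from 0.0363 to 0.303 over its 14 alternatives. FASN, fatty acid synthase, was at 72.8 and 6.84 FPKM, more than 10-fold apart. It was called in neither direction with both libraries (-0.37 ± 0.74, adjusted p 0.713), lower without library 0 (-1.99, adjusted p 0.0110) and higher without the cHL libraries numbered 1 (1.24, adjusted p 0.0308), with adjusted p up to 0.845 over its 14 alternatives.

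The count of genes called lower in L428 was 9 without L428 library 0 (28.1% of the 32, against 21.2% of all genes). It was 1 (3.12%) without L428 library 1 (16.7% of all), Namalwa library 1 (20.5%), Reh library 0 (20.1%) or Reh library 1 (19.5%). It was also 1 without the filter on low values (16.4% of all) or when a 2-fold difference was asked for (15.1%). Called lower only without L428 library 0 were ACAT2 (adjusted p 0.0482, from 0.0482 to 0.909), FDFT1 (adjusted p 0.0204, from 0.0204 to 0.581), LSS (adjusted p 0.0153, from 0.0153 to 0.874), CYP51A1 (adjusted p 0.0134, from 0.0134 to 0.653) and EBP (adjusted p 0.0179, from 0.0179 to 0.716), each with the range over its 14 alternatives. HMGCS1 passed as higher without L428 library 1 (adjusted p 0.0338), with adjusted p from 0.0338 to 0.706 over its 14 alternatives. MVD passed as higher without L428 library 1 (adjusted p 0.0119) or without the cHL libraries numbered 1 (0.0174), with adjusted p from 0.0119 to 0.691 over its 14 alternatives. NSDHL passed as higher without L428 library 1 (adjusted p 0.0414), with a block for the library number (0.0242) or with the library class term (0.0189), with adjusted p from 0.0189 to 0.941 over its 14 alternatives. SC5D passed as higher without Namalwa library 0 (adjusted p 0.0409), with adjusted p from 0.0409 to 0.519 over its 14 alternatives. A call that also asks for a 2-fold difference drops, in 1 or more of the comparisons above, SCAP, MVK, HSD17B7, ACACA, IDI1, ELOVL6, AACS and LPIN1.

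Among all genes tested, 23.5% were called higher and 23.5% lower in KM-H2, 23.1% and 22.8% in L1236, and 23.8% and 23.6% in L428. Of the neighbouring lists, sterol sensing genes gave 2 higher and 1 lower of 9 in KM-H2. They gave 2 and 1 in L1236, and 2 and 3 in L428. NPC2, which hands cholesterol to NPC1 in lysosomes, was higher in each (2.02, 1.98 and 1.89). Efflux genes gave 1 higher and 1 lower of 7 in KM-H2, 2 and 3 in L1236, and 1 and 2 in L428, with ABCA1 lower in L1236 (-1.80) and L428 (-1.95). MYLIP, a ubiquitin ligase induced by LXR, was higher in L1236 (2.03). The isoprenoid branch gave 0 higher and 3 lower of 9 in KM-H2, and 1 and 2 in both other lines, with PDSS1 at -1.85 in L1236 and -2.04 in L428.

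Other lipogenesis genes gave 2 higher and 3 lower of 15 in KM-H2, and 4 and 3 in both other lines. ACSS2 was lower in each (-2.17, -1.99 and -2.35), and LPIN2 was at 34.7 FPKM in L1236 against 6.13 in the controls (2.34). Fatty acid oxidation gave 1 higher and 2 lower of 12 in KM-H2, 5 and 1 in L1236, and 2 and 4 in L428. CPT1A, the gate of mitochondrial fatty acid import, was lower in KM-H2 (-1.70) and L428 (-1.60) and higher in L1236 (1.08) than the mean of the controls. The controls were far apart, at 1.04 and 0.844 FPKM in Namalwa and 12.1 and 13.6 in Reh, and L1236, at 11.6 and 8.47, lay below both Reh libraries. Cell cycle genes gave 0 higher and 4 lower of 10 in KM-H2, 1 and 4 in L1236, and 1 and 3 in L428. Their part in the lipid gene differences was not tested. The shares of all genes called higher and lower were 23.5% and 23.5% in KM-H2, 23.1% and 22.8% in L1236, and 23.8% and 23.6% in L428.

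The 3 cHL lines were also compared among themselves by limma's moderated F. It called 12 of the 32 genes (50.7% of all genes tested). They were FADS1 (adjusted p 5.04e-07), ELOVL6 (7.62e-05), LPIN1 (0.000227), FADS2 (0.00196), HSD17B7 (0.00442), SREBF1 (0.0103), DHCR7 (0.0122), CYP51A1 (0.0153), ACLY (0.0260), IDI1 (0.0265), STARD4 (0.0445) and MVK (0.0485). The count was 6 (18.8% of the 32) without L1236 library 0 (42.3% of all genes) or L1236 library 1 (41.7%). It was 7 (21.9%) without KM-H2 library 1 (47.4% of all) or without the cHL libraries numbered 1 (33.7%), and 17 (53.1%) without L428 library 0 (49% of all). Of the neighbouring lists it called 3 of 9 sterol sensing, 5 of 7 efflux, 4 of 9 isoprenoid, 5 of 15 other lipogenesis, 6 of 12 oxidation and 4 of 10 cell cycle genes.

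Each line had its own highest genes by mean FPKM. Among the cHL lines KM-H2 had the most FADS1 and ELOVL6. Its DHCR7 was at 23.0 and 32 FPKM against 7.36 and 8.18 in L1236 (L1236 minus KM-H2, -1.68 ± 0.39 (SE)), but L428 was at 34.2 and 13.6, with library 0 above both KM-H2 libraries. L1236 had the most ACLY, the enzyme that splits citrate into acetyl-CoA, at 190 and 141 FPKM against 69.8 and 52.5 in KM-H2 (1.42 ± 0.37 (SE)). It also had the most CYP51A1, at 101 and 91.9 FPKM against 22.1 and 24.9 in KM-H2 (1.99 ± 0.45 (SE)), and the most LPIN1, at 38.9 and 43.6 against 8.95 and 12 in L428 (L428 minus L1236, -1.89 ± 0.21 (SE)). L428 had the most STARD4, and the most SREBF1, at 32.6 and 34.3 FPKM against 4.32 and 13.5 in KM-H2 (L428 minus KM-H2, 1.97 ± 0.42 (SE)). It had the least HSD17B7. Its IDI1 was lowest by mean only through library 1, at 64.2 and 30.5 FPKM in libraries 0 and 1 against 59.7 and 66.5 in L1236. Among the genes not called, SREBF2 had group means within 1.52-fold over the 6 groups, and FDPS, farnesyl diphosphate synthase, had group means within 1.89-fold. Single libraries of FDPS ran from 60.3 to 198 FPKM.

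The remaining genes are given by range over the 12 libraries. ACAT2 ran from 30.0 to 84.8 FPKM, EBP from 30.1 to 84.7, MSMO1 from 18.3 to 93.4, and FDFT1 from 29.6 to 159. LSS ran from 5.04 to 30.3 FPKM, TM7SF2 from 3.79 to 15.5, SC5D from 2.67 to 6.36, and PMVK from 3.11 to 13.8. In ACAT2, EBP, MSMO1 and FDFT1 the lowest value was in L428 library 1 or in Reh+PMA library 1. By annotated span on hg19, 9 of the 32 genes overlap another protein-coding gene, among them MVK with MMAB, CYP51A1 with AKAP9, SREBF1 with RAI1 and ACACA with C17orf78, and the reads in those overlaps cannot be assigned from this table.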

How the data were processed

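The authors aligned the reads with TopHat2 2.0.11 to hg19 and computed the deposited FPKM values with Cuffnorm 2.2.1. The annotation, the strand setting and Cuffnorm's scaling between libraries are not given in the sources used here. From the table of 26210 genes, the 12929 with a mean of at least 1 FPKM over the 12 libraries were tested on log2(FPKM + 1). The tests used limma 3.58.1 in R 4.3.3, with its mean-variance trend and Benjamini-Hochberg adjustment over all genes tested. The cHL lines were compared with the control lines in a separate fit on line averages. The main fit of all 12 libraries had 6 residual degrees of freedom and was tested on simulated data. Tables were made with Python 3.11.15 and pandas 2.3.3, and figures with matplotlib 3.10.9.

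The 32 genes and the lists (sterol sensing, trafficking and esterification; cholesterol efflux and LXR; isoprenoid branch; other lipogenesis; fatty acid oxidation; cell cycle; PMA response; markers) were chosen with earlier results of these data known. Genes were named when called or when an alternative changed their call, except that changed calls among the cHL lines are given only as counts, and in the other lists from among the 4 called with the largest difference. Alternatives were a pseudocount of 0.1, no filter, median-of-ratios scaling, no trend, a 2-fold minimum, only the libraries compared, and each library left out. A block for the library number, a library class term and a fit without the cHL libraries numbered 1 were chosen after seeing the data.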

Additional observations from a re-analysis of the deposited data

Results flagged for a closer look

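These results are set apart because a gene was called higher than the mean of the controls in 1 cHL line and lower in another. Genes on opposite sides but not called in both lines are left out. On the log scale FADS1 was above the mean of the controls in L428 and below it in L1236, and L428 minus L1236 was 3.98 ± 0.25 (log2 of FPKM + 1, SE, limma adjusted p 3.90e-06). FADS1 was also above the controls in KM-H2, and L1236 minus KM-H2 was -5.97 ± 0.25 (adjusted p 2.67e-07). HSD17B7 was above the mean of the controls in KM-H2 and below it in L428, though single libraries of both lines overlapped the controls, and L428 minus KM-H2 was -1.82 ± 0.35 (adjusted p 0.00334). The HSD17B7 call against the controls was the same in 8 of 14 alternatives in KM-H2 and in 5 of 14 in L428. The cause was not tested.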

How the results depend on the processing

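Of 2656 values recomputed for the 32 genes, 588 were called both times, 1914 neither time, 96 lost their call and 57 gained one. Of those called neither time, 97 changed sign. In 1 more, FASN in L428, not called with every library (-0.37), the sign turned and a call was gained, at 1.24 without the cHL libraries numbered 1. Without those libraries, KM-H2 had 6 genes called higher (20.3% of all genes were), L428 had 1 lower (18.1%), 7 differed among the cHL lines (33.7%), and 10 had all cHL libraries above the controls (12.9%). In L428, 1 gene was lower without the filter (16.4% of all) and 1 with a 2-fold minimum (15.1%). With the block for the library number, 5 genes were higher in Reh+PMA (17.1% of all). Across genes, duplicate differences of 2 groups had r from -0.0408 to 0.633 over the 15 pairs of groups (-0.00489 for Reh with Reh+PMA, 0.633 for L1236 with L428), so a shared number does not mark a pair in every comparison. Line averages tested with the spread between libraries gave 12 genes higher (27.7% of all genes) and 1 lower (26.3%).

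Leaving out 1 library at a time, the genes called numbered 7 to 11 higher (19.2% to 22.0% of all genes) and 1 to 3 lower (18.6% to 22.3%) in KM-H2, 1 to 9 lower in L428 (16.7% to 22.1%), 2 to 3 lower in Namalwa (9.20% to 10.4%), 1 to 3 lower in Reh+PMA (8.38% to 11.3%), and 6 to 17 among the cHL lines (41.7% to 49%). Those with all cHL libraries above the controls numbered 3 to 10 (10.3% to 11.5% of all genes). A lone library is assumed to vary like the other groups. The cause of these changes was not tested.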
